A study of Mus musculus with 8 samples.

Results

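The H2 genes are the genes of the mouse major histocompatibility complex (MHC), and they were taken as every gene of the deposited count table whose symbol starts with H2- and which lies on chromosome 17. There were 25 such genes among the 18095 genes of the table, 17 of class I and 8 of class II. GENCODE M21 annotates 45 genes with such a symbol on chromosome 17 of GRCm38, and the 20 that are not in the table, such as H2-Oa and H2-Eb2, were not analysed here. RNA was sequenced from the livers of male mice that were fed a high-fat diet (HFD) and dissected at 12 weeks, in 4 libraries labelled HFD WT and 4 labelled HFD Inpp4b-/-, a deletion of a phosphatase of the PI3K pathway. The design gives 4 mice per genotype, and all 8 libraries shared the diet, the sex and the age. The labels give C57BL/6 as the strain background of both genotypes, whereas the study's methods describe mice bred into FVB.

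Class I molecules are formed on nearly every nucleated cell by a heavy chain and the light chain beta-2 microglobulin, and they present peptides from the cytosol to CD8 T cells. Class II molecules are formed by an alpha and a beta chain, are made mainly by macrophages, dendritic cells and B cells, and present peptides from endosomes to CD4 T cells. In the liver, hepatocytes carry class I, while class II is largely found on Kupffer cells, the resident macrophages, and on other non-parenchymal cells. C57BL/6, the strain of the reference genome, carries the b haplotype of the H2 locus, and FVB carries the q haplotype. The MHC is the most polymorphic region of the genome, so reads of a q haplotype may align less often to some b genes, and the number of Q and T genes differs between haplotypes.

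Promoter windows of 7 members are printed, those of the abundant H2-D1, H2-K1 and H2-Q10, the neighbours H2-Q7 and H2-Q6, and one chain each of the I-A and the I-E molecule. H2-Q1 and H2-Ab1, described below, had no promoter entry, and the window of H2-M3 is not printed. Each window is from RefSeq for GRCm38.p6, runs from 250 bases before to 50 bases after the annotated start, and is written 5′ to 3′ on the strand of the gene. Capitals mark matches, on either strand, to the kappa B site GGGATTCCC, the interferon-stimulated response element core GTTTCNNTT, the X2 box core TGACG and the Y box ATTGG. Sequences of this kind are known in MHC promoters as sites of NF-kappa B, of interferon regulatory factors and of the factors with which the transactivators NLRC5 and CIITA act.
H2-D1, chr17:35262844-35263143, plus strand: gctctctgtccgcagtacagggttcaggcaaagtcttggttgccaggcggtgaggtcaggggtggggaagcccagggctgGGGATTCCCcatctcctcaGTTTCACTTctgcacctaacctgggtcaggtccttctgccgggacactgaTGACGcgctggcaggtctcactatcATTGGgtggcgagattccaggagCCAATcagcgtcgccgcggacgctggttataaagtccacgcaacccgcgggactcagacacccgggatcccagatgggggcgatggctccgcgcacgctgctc
H2-K1, chr17:34000298-34000597, minus strand: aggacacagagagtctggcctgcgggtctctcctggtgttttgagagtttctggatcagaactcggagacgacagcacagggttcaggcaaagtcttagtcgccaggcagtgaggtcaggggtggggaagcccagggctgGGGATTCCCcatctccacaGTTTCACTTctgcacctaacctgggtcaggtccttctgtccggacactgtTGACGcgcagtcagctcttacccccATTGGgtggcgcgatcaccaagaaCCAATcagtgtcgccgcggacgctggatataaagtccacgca
H2-Q10, chr17:35469839-35470138, plus strand: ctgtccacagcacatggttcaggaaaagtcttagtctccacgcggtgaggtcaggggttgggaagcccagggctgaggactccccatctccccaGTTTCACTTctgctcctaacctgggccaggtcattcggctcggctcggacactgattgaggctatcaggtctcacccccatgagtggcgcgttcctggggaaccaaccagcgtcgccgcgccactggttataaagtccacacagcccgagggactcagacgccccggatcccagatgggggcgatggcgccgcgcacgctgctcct
H2-Q7, chr17:35438905-35439204, plus strand: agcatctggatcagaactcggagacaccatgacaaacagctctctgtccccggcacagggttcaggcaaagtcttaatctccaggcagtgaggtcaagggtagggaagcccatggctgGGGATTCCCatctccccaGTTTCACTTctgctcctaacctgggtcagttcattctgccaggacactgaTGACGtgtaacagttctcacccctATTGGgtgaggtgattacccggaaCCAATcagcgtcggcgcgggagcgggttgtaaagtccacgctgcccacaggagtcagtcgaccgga
H2-Q6, chr17:35424600-35424899, plus strand: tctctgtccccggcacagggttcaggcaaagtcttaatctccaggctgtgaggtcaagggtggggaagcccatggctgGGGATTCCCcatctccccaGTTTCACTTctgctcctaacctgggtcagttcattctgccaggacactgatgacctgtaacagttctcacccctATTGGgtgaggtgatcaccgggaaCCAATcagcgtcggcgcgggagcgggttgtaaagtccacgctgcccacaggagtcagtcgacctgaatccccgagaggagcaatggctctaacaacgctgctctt
H2-Aa, chr17:34287774-34288073, minus strand: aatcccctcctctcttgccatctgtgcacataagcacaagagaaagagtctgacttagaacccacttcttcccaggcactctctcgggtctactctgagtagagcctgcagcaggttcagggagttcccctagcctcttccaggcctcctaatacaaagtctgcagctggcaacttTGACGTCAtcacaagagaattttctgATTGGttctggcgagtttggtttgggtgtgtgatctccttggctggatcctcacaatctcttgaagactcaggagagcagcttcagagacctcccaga
H2-Eb1, chr17:34305617-34305916, plus strand: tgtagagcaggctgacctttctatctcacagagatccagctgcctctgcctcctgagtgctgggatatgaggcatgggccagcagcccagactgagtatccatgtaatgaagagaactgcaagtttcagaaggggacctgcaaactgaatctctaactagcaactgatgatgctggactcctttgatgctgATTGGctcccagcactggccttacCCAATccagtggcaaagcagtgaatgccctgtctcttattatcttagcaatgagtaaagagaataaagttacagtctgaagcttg

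Of the 25 members, 17 had a promoter entry, 11 of class I and 6 of class II. The kappa B site was found in 4 of the 11 class I windows, those of H2-K1, H2-D1, H2-Q6 and H2-Q7, and in 0 of the 6 class II windows, compared with 0.353% of all 32851 RefSeq promoters of this length. The interferon element was found in 8 of 11 class I and 0 of 6 class II windows, compared with 5.77% of all promoters. The short X2 core was found in 6 of 11 and 1 of 6 windows (20.8% of all promoters), and the Y box in 10 of 11 and 5 of 6 (37.4% of all promoters). In the H2-Aa window, the 2 X2 matches are the opposite strands of 1 palindrome and overlap by 2 bases. H2-Q10 held the interferon element alone, and H2-Q6 lacked the TGACG that was found 64 bases before the start of its neighbour H2-Q7. The RefSeq start lies 364 bases downstream of the 5′ end of the gene in GENCODE for H2-D1, 1942 bases for H2-DMb2 and 3291 bases for H2-DMa, so these windows lie inside the GENCODE genes. Long stretches of the printed class I windows are alike, such as those of H2-Q6 and H2-Q7, so their matches are not independent of each other. A match is a stretch of letters in the reference strain and not a measured binding site.

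The libraries held 25893430 to 31427831 counts with the WT label and 32738435 to 36662531 with the Inpp4b-/- label. Inpp4b itself was counted 6, 20, 5 and 8 times in the libraries labelled WT and 33, 10, 9 and 14 times in those labelled Inpp4b-/-, so its counts were not lower under the knockout label. Every direction below is therefore that of libraries labelled Inpp4b-/- relative to libraries labelled WT. Each gene of the deposited table had a read in every library of at least 1 genotype. Values are given as CPM, the counts of a gene per 1000000 counts of the library after TMM normalization. Fold changes are from edgeR's quasi-likelihood test of the 14866 genes left by its filter on low counts, and p-values were adjusted over these genes by the Benjamini-Hochberg method. To be called, a gene needed a fold change of more than 1.3 and an adjusted p below 0.10, which are the study's own thresholds. The study applied them to DESeq2 results and kept genes that passed with the counts of each of its aligners, HISAT2 and STAR. Here they were applied to edgeR results from the HISAT2 counts, with DESeq2 as an alternative, so a call here is not the study's call.

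The liver's H2 RNA was almost entirely that of 3 class I genes. Per kb of exon, the mean over the 8 libraries was 302.2 CPM for H2-D1, which ranged from 226.5 to 338.8. It was 271.9 CPM per kb for H2-Q10, with a range of 228.8 to 314.5, so these 2 genes were not separated. H2-K1 came next with 137.3 CPM per kb and a range of 95.35 to 158.8, below each library of the other two. H2-D1 and H2-K1 encode the classical class I heavy chains, and H2-Q10 encodes a secreted class I heavy chain that is known to be made by the liver. Together they held 93.9% to 94.8% of all class I CPM in the 8 libraries.

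A gap followed in the order of levels. The next were H2-K2, annotated as a transcribed pseudogene, at 10.88 CPM per kb, and H2-T10 at 9.841 CPM per kb. H2-Q4 was measured at 8.009 CPM per kb and the most abundant class II gene, H2-Ab1, at 6.904 CPM per kb. The ranges of these 4 genes overlapped one another. H2-Aa, the alpha chain partner of H2-Ab1 in the I-A molecule, was measured at 2.538 CPM per kb, while H2-Eb1, the beta chain of I-E, was measured at 0.2576 CPM per kb. The lowest members were H2-Ob at 0.09728 and H2-M10.6 at 0.06459 CPM per kb. The plot of CPM by gene shows these levels for all 25 members.

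**Figure D1:**
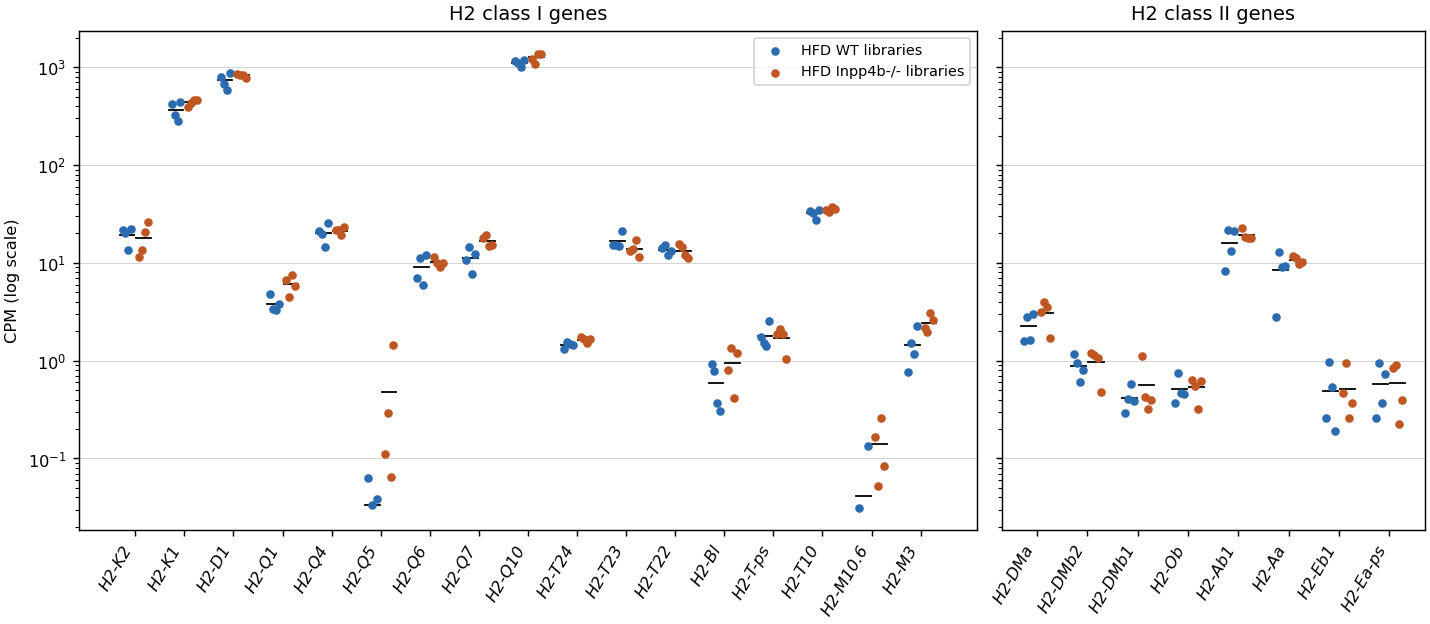
CPM on a log scale (y axis) of each H2 gene (x axis, ordered by position on chromosome 17) in the 4 HFD WT libraries (blue) and the 4 HFD Inpp4b-/- libraries (orange), with the mean of each group as a black line. Libraries with 0 counts, which occur for H2-Q5 and H2-M10.6, are not drawn but enter the mean. H2-K1, H2-D1 and H2-Q10 stand above all other members, and in most genes the 2 groups overlap.

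None of the tested H2 genes changed between the genotype labels by these criteria. Of the 25 members, 23 passed the expression filter, 15 of class I and 8 of class II, and 0 of 23 were called by edgeR's quasi-likelihood test, compared with 174 of all 14866 genes tested (1.17%, of which 0.552% were higher and 0.619% lower in libraries labelled Inpp4b-/-). An unadjusted p under 0.05 was found for 3 of the 23 genes (13.0%), H2-Q1, H2-Q7 and H2-M3, all with a higher level in libraries labelled Inpp4b-/-, compared with 13.9% of all genes tested, or 6.8% counting higher levels alone. DESeq2 called 2 members, H2-Q1 and H2-Q5, both higher, compared with 3.81% of 18069 genes in either direction and 1.81% higher. H2-Q5 had no read in 1 WT library and met the pattern common to all genes of the table only through the libraries labelled Inpp4b-/-, so its call is not independent of how the table was made. The members' log2 fold changes ranged from -0.251 to 0.761 with a median of 0.173, and the median over all genes tested was 0.00275. A log2 fold change above 0 was found for 19 of the 23 genes (82.6%), compared with 50.4% of all genes tested. These genes share libraries and partly share regulation, so their directions are not independent of each other.

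**Figure D2:**
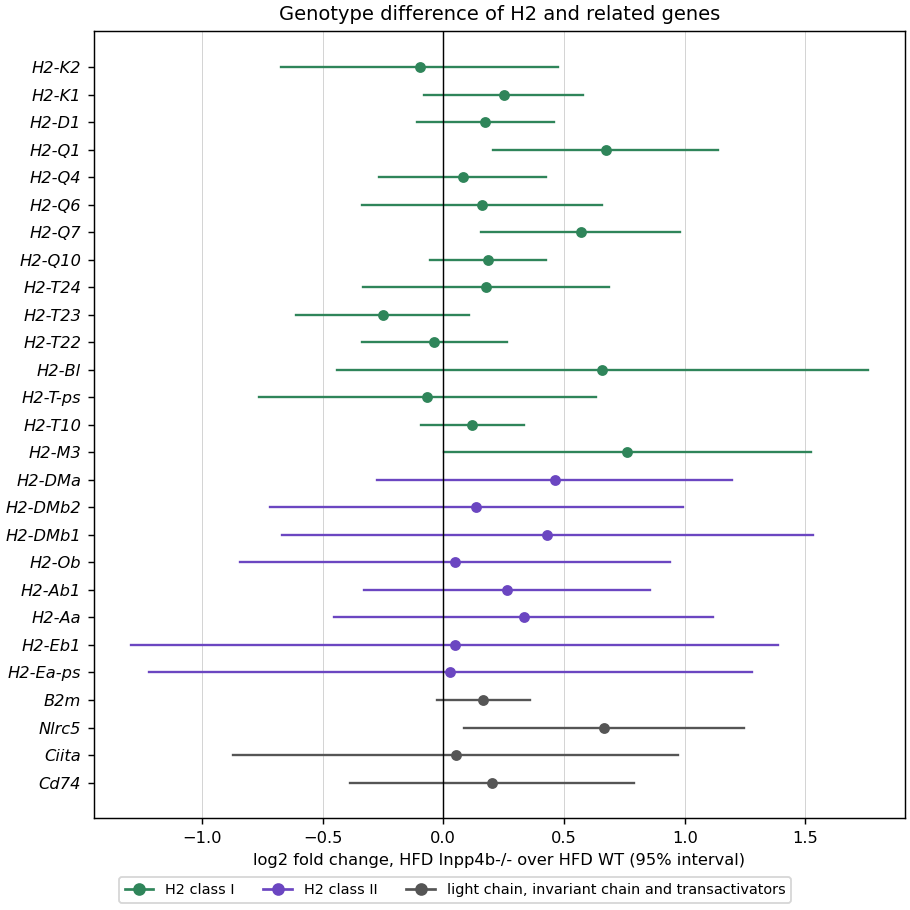
Log2 fold change of libraries labelled HFD Inpp4b-/- over those labelled HFD WT (x axis, points) with the 95% interval of edgeR's quasi-likelihood fit (bars), n = 4 per group, for the 23 tested H2 genes and for B2m, Nlrc5, Ciita and Cd74 (y axis). The intervals of H2-Q1, H2-Q7, H2-M3 and Nlrc5 lie above 0 before adjustment over all genes, and those of the other genes span 0.

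Among the classical class I genes, H2-K1 (ENSMUSG00000061232, chromosome 17, 33996017 to 34000347, minus strand) was measured at 425.0, 326.7, 280.1 and 442.5 CPM in libraries labelled WT and at 394.3, 426.5, 466.0 and 466.6 CPM in those labelled Inpp4b-/-. The groups overlapped, with the lowest 2 libraries both in the WT group. The means were 368.6 ± 77.93 and 438.3 ± 34.86 CPM (SD, n = 4 each). The log2 fold change of H2-K1 was 0.25 ± 0.147 (SE), with a 95% interval from -0.079 to 0.58 and an adjusted p of 0.486 in edgeR's quasi-likelihood test.

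H2-D1 (ENSMUSG00000073411, chromosome 17, 35262730 to 35267499, plus strand) was measured at 797.1, 675.6, 584.2 and 873.8 CPM in libraries labelled WT and at 857.6, 839.7, 839.0 and 768.5 CPM in those labelled Inpp4b-/-. The Inpp4b-/- values lay inside the WT range, and the log2 fold change was 0.17 ± 0.127 (SE, 95% interval -0.11 to 0.46, adjusted p = 0.586). H2-Q10 (ENSMUSG00000067235, chromosome 17, 35470089 to 35474563, plus strand) was measured at 1157, 1092, 994.8 and 1179 CPM in libraries labelled WT. In those labelled Inpp4b-/-, H2-Q10 was measured at 1225, 1082, 1360 and 1367 CPM. All but one of the latter lay above the highest WT library, and the log2 fold change was 0.19 ± 0.107 (SE, 95% interval -0.053 to 0.43, adjusted p = 0.475). The upper ends of these intervals correspond to a 1.49-fold higher level for H2-K1, 1.37-fold for H2-D1 and 1.34-fold for H2-Q10, so a change of the size required for a call remained within each interval.

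The 3 abundant genes kept their order in the class I total. H2-Q10 held 43.5% to 50.7%, H2-D1 28.0% to 33.8% and H2-K1 14.3% to 17.2% of the class I CPM in the 8 libraries. The count ratio of H2-K1 to H2-D1 was 0.48 to 0.533 with the WT label and 0.46 to 0.607 with the Inpp4b-/- label. The summed class I level was 2339 ± 304.5 CPM in libraries labelled WT and 2665 ± 144.6 CPM in those labelled Inpp4b-/- (SD, n = 4 each), and the ranges overlapped (1963 to 2647 and 2485 to 2810 CPM). The 15 class I log2 fold changes had a median of 0.173, which was 0.0795 without the library labelled HFD WT replicate 3.

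The only tested H2 gene whose libraries did not overlap between the labels was H2-Q7, and all genes tested included 688 (4.63%) with every library labelled Inpp4b-/- above every WT library, and 4.09% with every one below. H2-Q7 and H2-Q6 encode Qa-2, a non-classical class I molecule that is held in the membrane by a lipid anchor. H2-Q7 (ENSMUSG00000060550, chromosome 17, 35439155 to 35443773, plus strand) was measured at 10.62, 14.58, 7.748 and 12.21 CPM in libraries labelled WT and at 17.76, 19.08, 14.9 and 15.25 CPM in those labelled Inpp4b-/-. The closest libraries of the 2 groups, at 14.58 and 14.9 CPM, differed by less than the spread within either group. The log2 fold change was 0.57 ± 0.184 (SE, 95% interval 0.16 to 0.98), with an unadjusted p of 0.0116 and an adjusted p of 0.219 in edgeR's quasi-likelihood test over all genes. Over 14 alternative settings it ranged from 0.425 to 0.709, with adjusted p-values from 0.104 to 0.412, and it was not called under any of them.

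H2-Q6, the neighbour of H2-Q7, was measured at 6.97, 11.34, 5.996 and 11.91 CPM in libraries labelled WT and at 11.49, 9.987, 9.139 and 9.885 CPM in those labelled Inpp4b-/-. These groups overlapped fully, with a log2 fold change of 0.16 ± 0.222 (SE, adjusted p = 0.79). H2-Q6 and the next 4 genes, H2-Q1, H2-M3, H2-T22 and H2-Bl, are described because of their values or their likeness to a neighbour, and were chosen after those values were seen. The count ratio of H2-Q7 to H2-Q6 was 1.52, 1.29, 1.29 and 1.03 in libraries labelled WT and 1.55, 1.91, 1.63 and 1.54 in those labelled Inpp4b-/-. The ratios did not overlap, although the highest WT value and the lowest Inpp4b-/- value were 1.52 and 1.54, and no test was made since this pair was picked for its values.

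H2-Q1 (ENSMUSG00000079507, chromosome 17, 35320405 to 35325099) was measured at 4.831, 3.338, 3.335 and 3.802 CPM in libraries labelled WT and at 6.715, 4.494, 7.433 and 5.757 CPM in those labelled Inpp4b-/-. The groups overlapped by 1 library on each side. The log2 fold change was 0.67 ± 0.208 (SE, 95% interval 0.21 to 1.14), with an unadjusted p of 0.00927 and an adjusted p of 0.204 in edgeR. DESeq2 gave 0.66 with an adjusted p of 0.0727 and called the gene, and the adjusted p ranged from 0.0727 to 0.408 over the alternatives.

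H2-M3, which presents N-formylated peptides of bacteria and mitochondria, was counted 21, 48, 35 and 59 times in libraries labelled WT and 77, 74, 95 and 92 times in those labelled Inpp4b-/-. In CPM the groups overlapped, from 0.7744 to 2.266 and from 1.945 to 3.057. Its log2 fold change was 0.76 ± 0.34 (SE), with an unadjusted p of 0.0496 and an adjusted p of 0.358. Its counts did not overlap where its CPM did, since the libraries labelled Inpp4b-/- held more counts in all.

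The 6 tested T region genes had log2 fold changes of -0.251 to 0.658, and 0 of the 6 were called. H2-T23, which encodes Qa-1 and presents leader peptides of other class I chains to natural killer cells, was measured at 15.19, 15.15, 14.72 and 21.2 CPM with the WT label and at 13.15, 13.93, 17.12 and 11.46 CPM with the Inpp4b-/- label. Only 1 of the latter lay above the lowest WT library. Its log2 fold change of -0.25 ± 0.161 (SE, adjusted p = 0.525) was the lowest of the 23 tested members. H2-T10 and H2-T22 encode closely related molecules that are known as ligands of some gamma delta T cell receptors. H2-T10 was measured at 32.24 ± 3.534 CPM with the WT label and 35.05 ± 1.528 CPM with the Inpp4b-/- label (SD, n = 4 each, and likewise in that order hereafter), with a log2 fold change of 0.12 ± 0.096 (SE, adjusted p = 0.615). H2-T22 was measured at 13.68 ± 1.334 and 13.32 ± 2.012 CPM, with a log2 fold change of -0.038 ± 0.135 (SE, adjusted p = 0.929). H2-Bl had the widest interval of the class I genes, from -0.44 to 1.76. Outside the T region, H2-Q4 had a log2 fold change of 0.081 (adjusted p = 0.853) and the pseudogene H2-K2 one of -0.097 (adjusted p = 0.9).

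H2-Q5 and H2-M10.6 did not pass the expression filter. H2-Q5, annotated as a polymorphic pseudogene, was counted 0, 2, 1 and 1 times in libraries labelled WT and 4, 11, 2 and 51 times in those labelled Inpp4b-/-. Most of its reads thus came from the library labelled HFD Inpp4b-/- replicate 4. On the log2(CPM + 0.1) scale the difference of the group means was 1.52. H2-M10.6 was counted 0, 1, 4 and 0 times with the WT label and 6, 2, 8 and 3 times with the Inpp4b-/- label, with a difference of 0.78. Both genes have a WT library with 0 reads and meet the pattern of the table only through the libraries labelled Inpp4b-/-. If that pattern was the rule for entry, it favoured genes that are higher there, so both differences are given as a description with no test.

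All 8 class II genes passed the filter, and 0 of 8 were called or had an unadjusted p under 0.05. Their log2 fold changes lay between 0.0291 and 0.461 with a median of 0.2, and the adjusted p-values ranged from 0.575 to 0.984. H2-Ab1 (ENSMUSG00000073421, chromosome 17, 34257689 to 34269419) was measured at 8.261, 21.76, 13.27 and 21.16 CPM in libraries labelled WT and at 22.75, 18.45, 18.08 and 18.09 CPM in those labelled Inpp4b-/-. The WT libraries were spread from the lowest to nearly the highest of all 8, and the log2 fold change was 0.26 ± 0.265 (SE, 95% interval -0.33 to 0.86, adjusted p = 0.702). H2-Aa (ENSMUSG00000036594, chromosome 17, 34282744 to 34287823) was measured at 2.803, 12.91, 9.129 and 9.255 CPM with the WT label and at 11.85, 11.25, 9.654 and 10.25 CPM with the Inpp4b-/- label, with a log2 fold change of 0.33 ± 0.351 (SE, adjusted p = 0.719). In both genes the library labelled HFD WT replicate 1 was the lowest, and the Inpp4b-/- libraries lay within the range of the other WT libraries or within 1 CPM of it.

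The members that load peptides onto class II molecules were low in the liver. H2-DMa, whose product forms the DM dimer that exchanges peptides on class II, was measured at 2.242 ± 0.746 and 3.088 ± 0.9816 CPM, with a log2 fold change of 0.46 ± 0.329 (SE, adjusted p = 0.575). The 2 beta chains of DM, H2-DMb2 and H2-DMb1, were measured at means of 0.8844 and 0.4153 CPM with the WT label and 0.9722 and 0.5614 CPM with the Inpp4b-/- label, with adjusted p-values of 0.908 and 0.74. The log2 fold change of H2-DMb1 was 0.43, and it was -0.132 without the library labelled HFD Inpp4b-/- replicate 1. H2-Ob, whose product is part of the DO dimer that inhibits DM, was measured at 0.5143 ± 0.1675 and 0.5324 ± 0.1452 CPM (log2 fold change 0.048, adjusted p = 0.969). H2-Eb1 was measured at 0.192 to 0.9763 CPM and 0.2574 to 0.9461 CPM, and its interval from -1.295 to 1.388 spans both large falls and large rises. Per kb of exon, H2-Eb1 was below H2-Ab1 in each of the 8 libraries.

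The summed class II level was 15.01, 41.48, 26.58 and 35.98 CPM in libraries labelled WT and 41.98, 37.66, 33.43 and 32.29 CPM in those labelled Inpp4b-/-, and the log2 ratio of the group means was 0.288. Macrophage markers were summed in the same way. All 13 of 13 listed markers were in the table with at least 1 read in every library, and their sum was 93.74, 224.0, 159.9 and 274.8 CPM in libraries labelled WT and 250.1, 200.4, 302.1 and 170.7 CPM in those labelled Inpp4b-/-, a log2 ratio of 0.295. The library labelled HFD WT replicate 1 was the lowest of all 8 in both sums, while its hepatocyte marker sum (89960 CPM) was the highest with the WT label.

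Relative to the median of the other 7 libraries, HFD WT replicate 1 held 0.273 of H2-Aa, 0.448 of H2-Ab1 and 0.436 of Cd74, the invariant chain that escorts class II molecules. The remaining class II genes varied, with 0.354 for H2-Ea-ps, 0.529 for H2-DMa, 0.547 for H2-Eb1, 0.668 for H2-Ob and 0.721 for H2-DMb1. H2-DMb2 went the other way, at 1.25. The same library held 0.35 of Clec4f and 0.378 of Cd5l, both marks of Kupffer cells, and 0.345 of the receptor gene Csf1r. By the same measure it held 0.997 of H2-K1 and 0.95 of H2-D1. Without this library the log2 ratio of summed class II was 0.0676 and that of summed macrophage markers was 0.0721, and 5 of 8 class II genes had a log2 fold change above 0 with a median of 0.0453. The median was 0.0549, again with 5 of 8 genes above 0, without the library labelled HFD Inpp4b-/- replicate 1. The part of macrophage content in the class II values was not tested, and in bulk liver fewer cells of a type and less RNA per cell cannot be told apart.

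**Figure D3:**
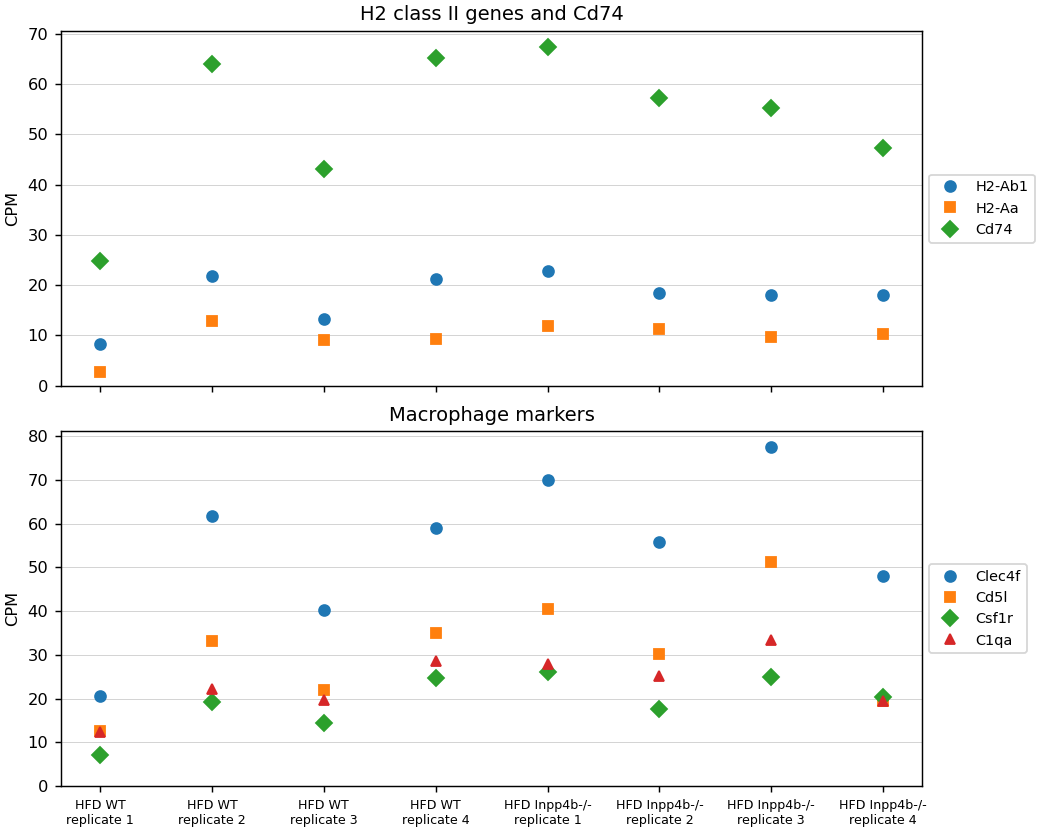
CPM (y axis) in each of the 8 libraries (x axis) of H2-Ab1, H2-Aa and Cd74 (top) and of the macrophage markers Clec4f, Cd5l, Csf1r and C1qa (bottom), 1 point per gene and library. The library labelled HFD WT replicate 1 is the lowest for all 7 genes.

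Markers of B cells, of dendritic cells and of T and NK cells were scarce, while those of endothelial cells were not. The 7 listed B cell markers, 2 of which had 0 counts in some library, summed to 1.659 to 5.386 CPM with the WT label and 3.311 to 4.762 CPM with the Inpp4b-/- label. The 8 dendritic cell markers, 3 of them with 0 counts in some library, summed to 9.297 to 12.57 and 10.13 to 13.68 CPM. T and NK cell markers were represented by 5 of 9 genes, with sums of 1.344 to 5.197 and 2.446 to 3.6 CPM, and Cd3e, Cd3d, Cd8a and Ncr1 were not in the table. The 7 endothelial markers summed to 116.8 to 151.0 and 104.7 to 157.4 CPM. Hepatocyte markers, by contrast, summed to 83710 to 106600 CPM over all 8 libraries.

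The genes that assemble and load class I molecules were not called either. Of 16 genes in the class I processing list, 16 were tested, 0 were called, 6 had a log2 fold change above 0, and the median was -0.057, beside 1.17% called, 50.4% above 0 and a median of 0.00275 over all genes tested. An unadjusted p under 0.05 in edgeR's quasi-likelihood test was found for 3 of the 16 (18.8%), compared with 13.9% of all genes tested. Only 1 of the 3 was higher in libraries labelled Inpp4b-/-. B2m (ENSMUSG00000060802, chromosome 2, 122147686 to 122153083), the light chain that all these heavy chains share, was measured at 1592, 1551, 1430 and 1446 CPM in libraries labelled WT and at 1611, 1693, 1703 and 1745 CPM in those labelled Inpp4b-/-. The groups did not overlap, by a margin of 1592 against 1611 CPM, and the log2 fold change of 0.17 ± 0.0863 (SE, 95% interval -0.027 to 0.36) had an adjusted p of 0.427 in edgeR's quasi-likelihood test. The peptide transporter genes Tap1 and Tap2 had log2 fold changes of -0.057 and -0.17, and the immunoproteasome subunits Psmb8 and Psmb9 had 0.19 and 0.13, with adjusted p-values from 0.603 to 0.849. These last 4 genes lie among the class II genes on chromosome 17 and were named for that place.

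Nlrc5, the transactivator of class I genes, had a larger difference and a wider spread. It was measured at 26.99, 24.38, 14.55 and 10.33 CPM in libraries labelled WT and at 32.58, 28.17, 28.32 and 32.04 CPM in those labelled Inpp4b-/-. The groups did not overlap, and the WT libraries varied more than the Inpp4b-/- libraries, with SDs of 7.911 and 2.358 CPM. The log2 fold change was 0.67 ± 0.259 (SE, 95% interval 0.088 to 1.25), with an unadjusted p of 0.0282 and an adjusted p of 0.295, and Nlrc5 was not called under any of 14 alternatives, whose adjusted p-values ranged from 0.179 to 0.459.

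In the class II processing list, 12 of 12 genes were tested, 0 were called, 7 had a log2 fold change above 0, and the median was 0.116, to be read against the same 1.17% and 50.4% of all genes. Ciita, the master transactivator of class II, was measured at 1.211 ± 0.4488 and 1.252 ± 0.5789 CPM (log2 fold change 0.051, adjusted p = 0.968), and Cd74 at 49.28 ± 19.17 and 56.69 ± 8.253 CPM (log2 fold change 0.2, adjusted p = 0.775; -0.0175 without HFD WT replicate 1). Rfxank, a subunit of the RFX complex that binds MHC promoters, was named after its values were seen. It was measured at 4.031 to 5.645 CPM with the WT label and 6.438 to 7.975 CPM with the Inpp4b-/- label, without overlap. Its log2 fold change of 0.55 ± 0.155 (SE) had an adjusted p of 0.173 in edgeR and 0.04 in DESeq2, which called it.

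Nlrc5 and Rfxank lie on chromosome 8, as does Inpp4b (81342556 to 82127914), at 12.3 and 11.2 Mb from it. Ifi30, a lysosomal thiol reductase gene with a log2 fold change of 0.45 (adjusted p = 0.314), lies 10.6 Mb from Inpp4b. The other 2 listed genes on this chromosome, Calr at 2.71 Mb and Psmb10 at 23.8 Mb, had log2 fold changes of -0.11 each, both with an adjusted p of 0.725. Strain segments that stay linked to a targeted gene through breeding and the genotype itself cannot be told apart in this design. The positions of these genes were looked up after their values were seen.

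Interferons raise MHC genes, so a list of 16 interferon response genes was examined beside them. All 16 were tested, 13 had a log2 fold change above 0 with a median of 0.427, and 1 was called by edgeR. Over all genes tested, 50.4% had a log2 fold change above 0, the median was 0.00275 and 1.17% were called. DESeq2 called 2 of the 16, Ifit1 and Igtp. The gene called by both was Igtp, an interferon-inducible GTPase, which was measured at 32.42, 34.9, 32.88 and 40.59 CPM in libraries labelled WT and at 55.25, 65.2, 47.24 and 47.57 CPM in those labelled Inpp4b-/-. It rose by a log2 fold change of 0.61 ± 0.124 (SE, 95% interval 0.34 to 0.89, adjusted p = 0.0804 in edgeR), and the groups did not overlap. The call was lost when any of 6 single libraries was left out, with adjusted p-values of 0.101 to 0.206, and with the replicate number as a block (adjusted p = 0.264).

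Genes that lie between the H2 genes were compared as a description of the region. The 25 members span 3.3 Mb of chromosome 17, from 33974659 to 37274484, and 112 other genes of the table lie in this span. Of these, 93 were tested and 0 were called by edgeR, 41 (44.1%) had a log2 fold change above 0, and the median was -0.0207, compared with 0.173 for the 23 tested H2 genes among them. The smallest adjusted p among the 93 genes was 0.134, that of Atf6b, a transcription factor of the unfolded protein response, which was named after its value was seen. In the plot of log2 fold change by position, the 6 tested members from H2-D1 to H2-Q10 lie side by side above 0, at 0.081 to 0.67.

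**Figure D4:**
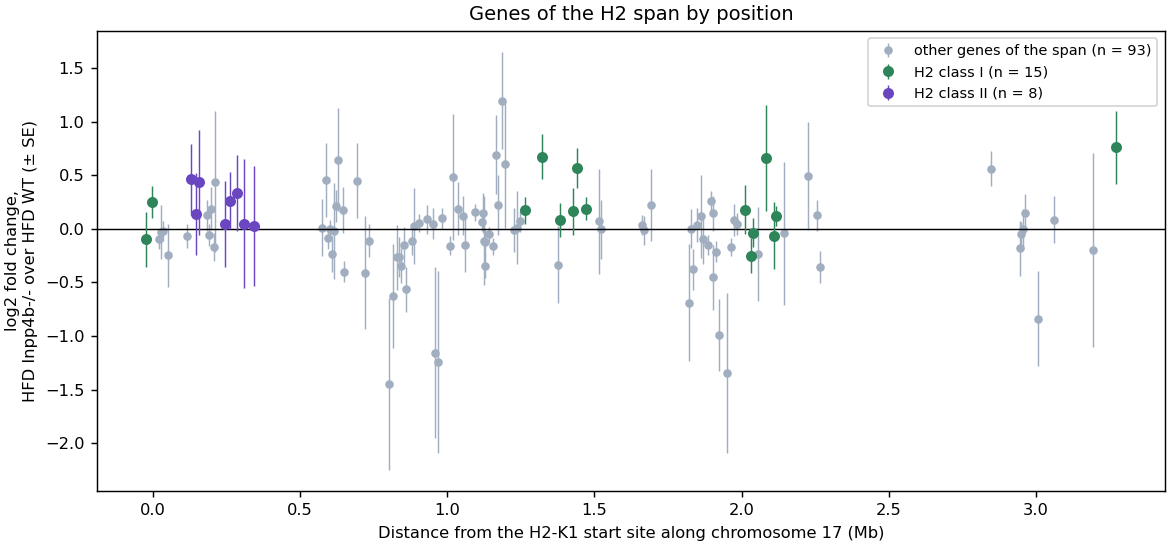
Log2 fold change of libraries labelled HFD Inpp4b-/- over those labelled HFD WT (y axis, bars ± SE, n = 4 per group) of the tested genes in the H2 span against the distance from the H2-K1 start site in Mb (x axis). The 15 class I genes are green, the 8 class II genes purple and the 93 other genes grey. Points of class I and of the other genes lie on both sides of 0. All 8 class II points lie above 0, within a few SE of it.

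A count per gene carries no bases, so the H2 haplotype of a mouse cannot be read from these values. What can be given is how much of the reference sequence of each gene also occurs unchanged in another gene. No q sequence entered this comparison, so a share of 0% does not show that a count is unaffected by haplotype. Copies that differ by a few bases are not counted either. Of all 150-base windows of the GENCODE transcripts of a gene, the share that also occurs in a transcript of another gene was 0% for H2-K1, H2-Ab1, H2-Aa and H2-Eb1 and 1.4% for H2-D1. It was 2.7% for H2-Q1, 3.4% for H2-Q10, 5.9% for H2-Q7, 6.0% for H2-Q6, 20.9% for H2-T10 and 22.3% for H2-T22. For H2-T22 and H2-T10 the shared windows were mainly those of A930015D03Rik (21.9%) and BC023719 (20.5%), so these 2 counts are uncertain. H2-Q6 shared its windows with H2-Q7, so reads of either could be discarded or reassigned. The main partner of H2-Q7 was H2-Q10 (2.9% of H2-Q7 windows and 3.1% of H2-Q10 windows). The 1.4% of H2-D1 windows were shared with H2-Q1. With the WT label, mean levels were 1106 CPM for H2-Q10 and 11.29 for H2-Q7, and 732.7 for H2-D1 and 3.827 for H2-Q1. A small share of reads from the abundant partner could thus weigh on the H2-Q7 and H2-Q1 counts, which was not tested.

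Several members are known to vary between haplotypes. H2-Q5, H2-Bl, H2-T10 and H2-Ea-ps are annotated as polymorphic pseudogenes, which are intact in some strains. H2-Ea-ps, the alpha chain gene of I-E, has lost its promoter to a deletion in the b haplotype. It was counted 7, 30, 11 and 19 times in libraries labelled WT and 30, 34, 7 and 14 times in those labelled Inpp4b-/-. These few reads were spread over both labels, with a log2 fold change of 0.029 ± 0.56 (SE, adjusted p = 0.984). All 23 tested members had reads in each of the 8 libraries. A q haplotype carried by both genotypes could lower a count in all 8 libraries alike and would not appear in this comparison, and this was not tested. A haplotype that differed between the labels, or between mice of the same label, could appear as a difference in counts. In this design it cannot be told apart from the genotype. This holds also for H2-Q5, which was counted 51 times in the library labelled HFD Inpp4b-/- replicate 4.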

How the data were processed

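RNA-seq of 8 mouse livers was re-analysed. Per the labels and the study's methods, the authors aligned 150-bp paired reads to GRCm38 with HISAT2 and deposited raw counts per gene from HTSeq, with no normalization. They also deposited a normalized signal, in which counts were scaled by 1 factor per library, which was not tested. The annotation release and strand setting are not given in the sources used here, and the labels and the methods differ on strain and on rRNA removal. Symbols, positions and exon lengths came from GENCODE M21, where 18095 of 18095 identifiers were found.

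Totals were 25893430 to 36662531 counts, and few counts limit the precision of the low class II genes. Counts of all genes were fitted with edgeR 4.0.16 (TMM, filterByExpr, glmQLFit, glmQLFTest), where the biological coefficient of variation was 0.251. Benjamini-Hochberg adjusted p-values cover all genes tested. Members below the filter were compared on the log2(CPM + 0.1) scale. The planned exact permutation test of them is not reported, since they met the pattern of the table through one genotype alone. R 4.3.3, DESeq2 1.42.0, Python 3.11.15 and scipy 1.17.1 were used, and the script was tested on simulated data. The members, gene lists, marker lists and tests were chosen with earlier results of these data known. Genes named by rule were members called or without overlap, H2-K1, H2-D1, the classical class II and DM and DO genes, the 5 other members with most counts, members below the filter with over 3 counts in every library of one genotype and 3 or fewer in the other, called genes of the processing lists and of the span, and B2m, Cd74, Ciita and Nlrc5. Alternatives were DESeq2, other scalings, filters and thresholds, the replicate number as a block, and each library left out in turn. P-values measure the spread between the livers sampled.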

Additional observations from a re-analysis of the deposited data

Results flagged for a closer look

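A library that stood apart from the other 3 of its group, by Dixon's test at the 95% level, was found in 5 of 60 groups of 4 examined, where chance alone gives about 3. H2-DMb1 was at 1.11 CPM in the library labelled HFD Inpp4b-/- replicate 1, with the other 3 at 0.3218 to 0.4205 CPM. H2-Ab1 was at 22.75 CPM in the same library, with the others at 18.08 to 18.45 CPM. Ciita was at 2.109 CPM, again in this library, with the others at 0.8366 to 1.051 CPM. H2-Q5 was at 1.432 CPM in the library labelled HFD Inpp4b-/- replicate 4, with the others at 0.06436 to 0.2891 CPM. H2-T23 was at 21.2 CPM in the library labelled HFD WT replicate 4, with the others at 14.72 to 15.19 CPM.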

How the results depend on the processing

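Class II genes called stayed at 0 under every alternative run. DESeq2 called 2 class I genes (H2-Q1 at a log2 fold change of 0.664, and H2-Q5), 1 processing gene (Rfxank) and 3 other genes of the span (Atf6b, Ppp1r10 and Trim26), where edgeR called 0 of each. Leaving out 1 library gave 0 to 0 calls for class I, class II and processing genes and 0 to 1 for the other genes of the span (Trim26, without HFD WT replicate 2). Over all genes, the 174 calls became 688 with DESeq2, 26 with the replicate block, 71 at an adjusted p under 0.05, 83 at a fold change over 2, and 53 (without HFD Inpp4b-/- replicate 2) to 345 (without HFD WT replicate 2) with 1 library left out. The labels do not state that replicate numbers pair the libraries. Same-numbered libraries had correlations of -0.17 to -0.0104 between their deviations from the group means, and the other pairs had -0.0339 to 0.139. These values show no shared deviation of same-numbered libraries, but they cannot show that the mice were unrelated.

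Fold changes of 11 genes turned sign when 1 library was left out, with ranges of -0.333 to 0.0669 for H2-K2, -0.00688 to 0.363 for H2-DMb2, -0.132 to 0.626 for H2-DMb1 (0.43 with all libraries), -0.0794 to 0.289 for H2-Ob, -0.434 to 0.614 for H2-Eb1, -0.245 to 0.376 for H2-Ea-ps, -0.0497 to 0.206 for H2-Q4, -0.118 to 0.0393 for H2-T22, -0.176 to 0.151 for H2-T-ps, -0.321 to 0.218 for Ciita and -0.0175 to 0.366 for Cd74. The block gave -0.0157 for H2-Ea-ps. Igtp also lost its call with the block (0.606, adjusted p = 0.264). For H2-Q5, leaving out 1 library gave differences of 0.853 to 1.93 and adding 1 CPM in place of 0.1 gave 0.425, as a description only. Over the 388 values that other fits gave for 28 genes, 355 kept direction and call, 25 turned sign, 7 lost a call and 1 gained one. Scaling moved the median of all genes by at most 0.03. Leaving out HFD WT replicate 1 from the summed levels was chosen after seeing the data. Causes were not tested. The counts of H2-Eb1, H2-Ob, H2-DMb1 and H2-Ea-ps limit what could be detected.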
